A study of Homo sapiens with 12 samples.

Results

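Cytosolic heat shock proteins and their cochaperones were followed in prostate cancer cells given 4 cytotoxic compounds. The list held 38 genes, chosen by name and function: the HSP70, HSP110, HSP90 and small heat shock protein families, J-domain proteins, BAG proteins, heat shock factors, HSP90 cochaperones and adaptors, and 2 genes of ubiquitin. Of these, 34 had a probe on the array, 28 were detected well enough to be tested among 8783 genes in all, 6 had only probes that were not detected in any whole group, and 4 had no probe assigned to them.

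HSP70 binds short hydrophobic stretches of unfolded proteins and releases them as it turns over ATP. J-domain proteins bring it clients and start the ATPase cycle, exchange factors such as the HSP110 and BAG proteins reset it, and STIP1 and other adaptors hand clients on to HSP90, on which steroid receptors such as the androgen receptor depend. Small heat shock proteins hold unfolded proteins without ATP. When unfolded protein accumulates in the cytosol, heat shock factor 1 is released from chaperones and binds repeats of a short inverted sequence, the heat shock element, in the promoters of many of these genes.

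RNA came from LNCaP-S14 cells, a derivative of the human prostate adenocarcinoma line LNCaP that stably overexpresses SKP2, and was hybridized to Illumina HumanRef-8 bead arrays. All groups carried SKP2 and were treated for 24 h, as the labels state for SMIP004 and the methods for the others, with DMSO as vehicle, 40 µM SMIP004, 50 nM of the proteasome inhibitor bortezomib (BTZ), 500 nM of camptothecin (CPT), which traps topoisomerase I on DNA, or 20 µM of the CDK inhibitor roscovitine (RVT). Each of the 5 groups had 2 samples, and each SMIP004 sample was the mean of 2 technical arrays. DMSO and SMIP004 lay on slide 1 and BTZ, CPT and RVT on slide 2, so that compound and slide cannot be told apart for BTZ, CPT or RVT against DMSO or for SMIP004 against BTZ, whereas SMIP004 against DMSO and BTZ against CPT or RVT stayed within a slide. One stably modified line was used, nothing says that the samples were separate cultures, and p-values then measure only the spread between these samples.

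The RVT samples stood apart from each other. The SD over all genes of the difference between them was 0.77 on the log2 scale and 0.68 over the listed genes. In the other groups it was 0.13 (SMIP004, whose samples are means of 2 arrays) to 0.22 over all genes. The spread in the model draws on the RVT samples, and counts of called genes are given below with and without them. In the BTZ against RVT comparison the counts are given without 1 RVT sample at a time. Of the LNCaP markers, 7 of 9 were tested: against DMSO, 4 were lower and 1 higher with SMIP004 and with CPT, 5 lower and 2 higher with BTZ, and 1 higher with RVT. Their summed level (on the linear scale) was 12419 to 13088 in DMSO, 5472 to 5829 with SMIP004, 4551 to 4907 with BTZ, 10760 to 10781 with CPT and 15910 to 17440 with RVT. KLK2 and KLK3 were detected in DMSO but on no array of SMIP004, BTZ or CPT, and KRT18 was not detected in DMSO. No basal or leukocyte marker was detected through a group, while 2 of 3 fibroblast markers, COL1A1 and VIM, undetected in DMSO, were both detected on all SMIP004 arrays and COL1A1 on all BTZ and CPT arrays, with summed levels of 76.5 to 103 in DMSO, 260.4 to 263 with SMIP004, 177 to 245 with BTZ, 114 to 131 with CPT and 80.7 to 95.7 with RVT. SKP2 itself was at 13.54 in DMSO, 12.66 with SMIP004, 14.94 with BTZ, 14.47 with CPT and 14.35 with RVT. The part of these shifts in the results below was not tested.

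Levels are log2 values after background correction and quantile normalization, differences are log2 changes ± SE from 1 limma model of all 10 samples, and a gene is called when its p, adjusted by Benjamini-Hochberg over the 8783 genes, is under 0.05. Where a gene was detected on no array of a group, its fold is only a lower bound against the dimmest detected signal and is written "at least". A gene was tested only if all arrays of some group detected it. HSPB8 passed this filter through BTZ alone, DNAJA4 through CPT alone, CRYAB through BTZ and CPT, and DNAJB4 through SMIP004, BTZ and CPT. Their p-values for those groups, and their places in the counts of genes raised there, are therefore no separate support. Fewer cells that express a gene and less RNA per cell cannot be told apart in these bulk samples.

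Most of the listed genes tested rose with BTZ and most fell with SMIP004, 10 of them doing both. With BTZ, 20 of the 28 genes tested were higher than in DMSO and 2 were lower (background over all genes, 31.7% higher and 32.8% lower). With SMIP004, 4 were higher and 15 were lower (28.7% and 29.9%). The median log2 change of the listed genes was 1.30 with BTZ and -0.49 with SMIP004, against -0.01 and -0.02 over all genes tested. Both comparisons share the DMSO samples, so each gene is given below with its own values. By call, 10 genes were lower with SMIP004 and higher with BTZ, 4 were higher with both, 2 were lower with both, 3 were lower with SMIP004 only, 6 were higher with BTZ only and 3 were called in neither. With RVT left out of the model these numbers were 12, 4, 2, 2, 6 and 1, and HSPA1L was called higher with SMIP004 only. The 2 genes added to the first number, CACYBP and DNAJB6, each had a further probe that did not fall with SMIP004. Those probes changed by 0.28 and 1.44.

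In the direct comparison of the compounds, SMIP004 samples were lower than BTZ samples for 22 of the 28 genes and higher for 1, STUB1 (24.5% lower and 24.6% higher over all genes). With RVT left out of the model, 23 were lower and 3 higher, HSPA1L and DNAJB2 beside STUB1 (35.4% and 34.4%). The median difference was -2.01, against -0.02 over all genes. Within slide 2, 23 genes were higher with BTZ than with CPT and 3 were lower (32.8% and 32.7%), and 22 were higher with BTZ than with RVT and 1 was lower (29.8% and 30.2%), with medians of 1.17 and 1.19 (0.01 and -0.03 over all genes). Without RVT in the model the BTZ against CPT counts were 23 higher and 4 lower (39.7% and 39.8%), and without RVT 1 or RVT 2 the BTZ against RVT counts were 22 higher and 2 or 1 lower (35.2% and 36.2%, and 36.4% and 37.4%, over all genes).

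With CPT, 13 genes were higher than in DMSO and 8 were lower (31.7% each way). The median was 0.38, against a value close to 0 over all genes. It was 0.16 with genes undetected in DMSO at their bounds and HSPB8, which had no bound, at 0. Scaling the arrays to 1 median in place of quantile normalization turned the CPT split into 11 higher and 11 lower. That scaling called 5416 of the 8783 genes with CPT, against 5569. RVT left 25 of the 28 genes uncalled, with none higher and 3 lower (3.48% and 4.19%). The median was 0.09, or 0.04 with the 4 genes undetected in the lower group, none of which had a bound, at 0. Leaving RVT out of the model raised the calls over all genes too: the counts were 5 higher and 16 lower with SMIP004 (36.7% and 38.7% of all genes), 22 and 2 with BTZ (38.5% and 39.3%), and 15 and 10 with CPT (38.2% and 38.4%). In the families below, counts are read against the shares over all genes called in the same direction, which in the model of all samples lie between 28.7% and 32.8% for SMIP004, BTZ and CPT against DMSO.

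**Figure D1:**
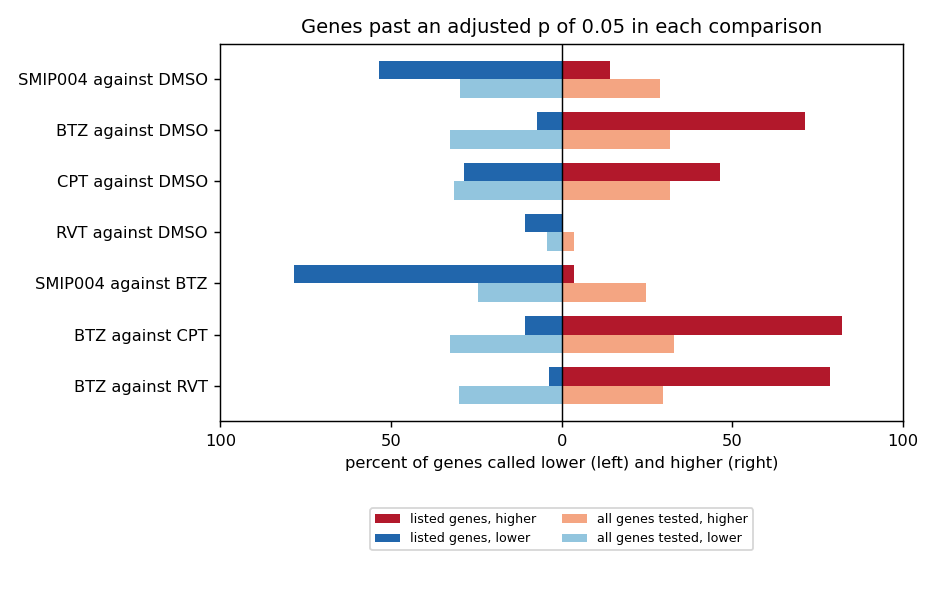
Percent of the 28 listed genes tested (dark bars) and of all 8783 genes tested (pale bars) called lower (left) or higher (right) in each of 7 comparisons. BTZ has 20 of 28 genes to the right and SMIP004 has 15 of 28 to the left, while the pale bars are nearly even on both sides.

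**Figure D2:**
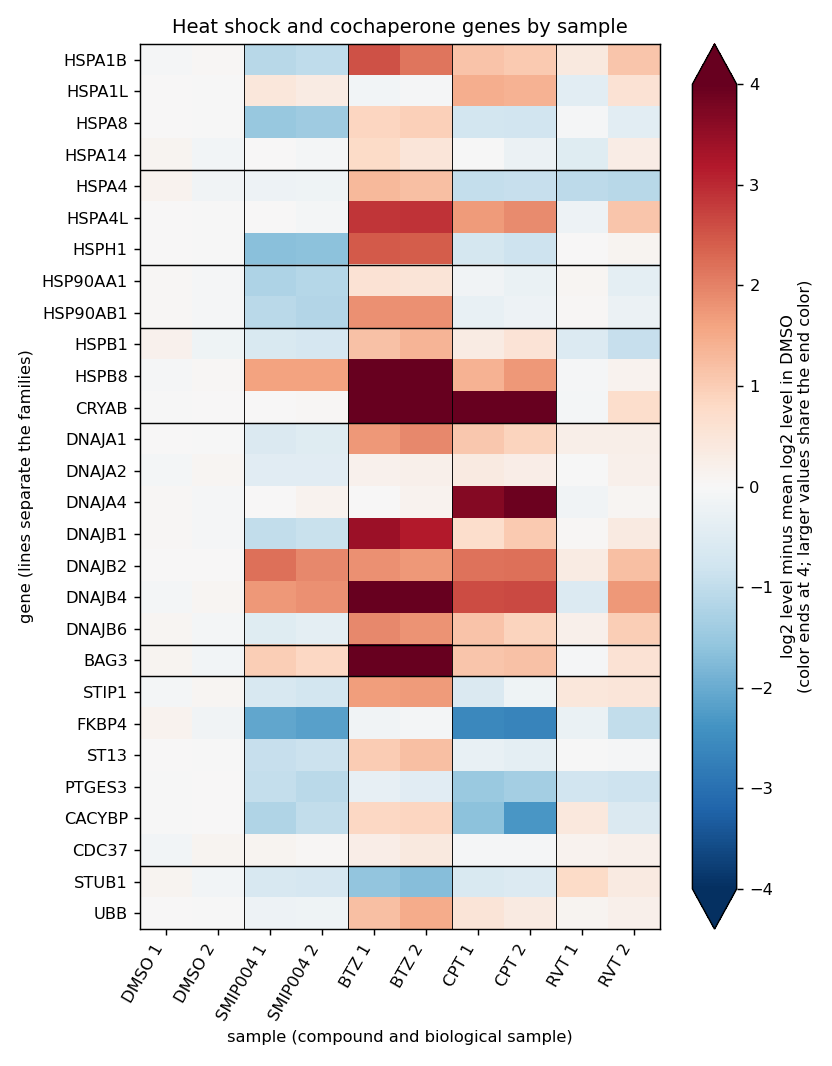
Log2 level of each of the 28 genes minus its DMSO mean (color) in each of the 10 samples (columns), with lines between families and colors ending at 4 either way. Most rows are blue with SMIP004 and red with BTZ, and the 2 RVT columns differ for DNAJB4, HSPA4L and others.

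Heat shock elements are repeats of the unit GAA in alternating orientation. The windows from 250 bases before to 50 bases after each transcription start (RefSeq, GRCh38.p14) were searched on both strands for GAANNTTCNNGAA and its reverse complement TTCNNGAANNTTC, the full repeat, and for GAANNTTC and TTCNNGAA, the short repeat, which lies inside every full one. Of 35116 windows, 0.49% held the full repeat and 13.5% the short one. Among the listed genes, 32 had a window, 47 windows in all, of which 7 held the full repeat (14.9%) and 19 the short one (40.4%). Of the tested genes, HSPA8, HSP90AA1, HSP90AB1, DNAJA1 and DNAJB6 had a full match. The first 4 of these are shown because all were lower with SMIP004 and higher with BTZ, and HSPB8, which has 2 short matches, because it was higher with both. Capitals mark the matches, each sequence is read 5′ to 3′ along the strand of the gene, and a match is a description of letters and not of a bound site.
HSPA8, chr11:123062087-123062386, minus strand: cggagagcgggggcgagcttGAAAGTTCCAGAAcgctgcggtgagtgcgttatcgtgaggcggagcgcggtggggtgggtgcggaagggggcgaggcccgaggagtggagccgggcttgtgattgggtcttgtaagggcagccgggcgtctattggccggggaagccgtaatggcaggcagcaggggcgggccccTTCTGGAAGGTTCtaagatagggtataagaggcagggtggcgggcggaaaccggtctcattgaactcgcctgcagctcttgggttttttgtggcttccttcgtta
HSP90AA1, chr14:102086995-102087294, minus strand: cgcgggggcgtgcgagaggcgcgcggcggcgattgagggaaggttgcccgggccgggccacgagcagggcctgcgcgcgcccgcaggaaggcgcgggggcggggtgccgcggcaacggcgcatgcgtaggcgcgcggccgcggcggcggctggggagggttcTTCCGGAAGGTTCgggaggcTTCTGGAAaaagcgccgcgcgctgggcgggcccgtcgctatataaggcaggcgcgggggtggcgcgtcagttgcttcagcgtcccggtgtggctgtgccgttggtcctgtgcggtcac
HSP90AB1, chr6:44247693-44247992, plus strand: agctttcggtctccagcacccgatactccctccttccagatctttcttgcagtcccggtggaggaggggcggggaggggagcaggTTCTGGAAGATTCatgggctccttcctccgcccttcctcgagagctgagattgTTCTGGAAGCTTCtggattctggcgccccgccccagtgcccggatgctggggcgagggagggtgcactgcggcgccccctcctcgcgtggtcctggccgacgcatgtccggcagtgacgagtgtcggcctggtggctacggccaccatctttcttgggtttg
DNAJA1, chr9:33025023-33025322, plus strand: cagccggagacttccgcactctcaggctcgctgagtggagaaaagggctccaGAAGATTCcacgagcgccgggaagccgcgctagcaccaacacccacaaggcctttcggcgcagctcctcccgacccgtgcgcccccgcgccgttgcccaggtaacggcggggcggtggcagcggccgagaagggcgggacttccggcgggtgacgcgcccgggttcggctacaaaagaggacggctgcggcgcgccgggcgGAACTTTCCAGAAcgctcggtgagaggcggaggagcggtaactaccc
HSPB8, chr12:119178681-119178980, plus strand: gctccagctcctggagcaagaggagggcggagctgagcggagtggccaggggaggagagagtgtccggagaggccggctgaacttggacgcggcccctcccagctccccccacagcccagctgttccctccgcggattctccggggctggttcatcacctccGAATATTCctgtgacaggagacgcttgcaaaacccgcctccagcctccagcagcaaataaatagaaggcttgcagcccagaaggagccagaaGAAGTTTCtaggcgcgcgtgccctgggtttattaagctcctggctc
The windows of BAG3, DNAJB2 and HSPH1 held neither repeat (BTZ raised all 3 genes). HSPA1B, HSPB1, DNAJB1 and STIP1, also lower with SMIP004 and higher with BTZ, held the short repeat but no full one, and ST13 had no window. The further windows of HSP90AA1 and HSP90AB1 held neither repeat. Whether the repeat goes with the direction of change was not tested.

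In the HSP70 family, 4 of 7 genes were tested, of which 2 fell with SMIP004, the same 2 rose with BTZ, and CPT raised 2 and lowered 1. HSPA8, the constitutive HSP70 of the cytosol, read 14.41 and 14.38 in DMSO, 12.88 and 12.97 with SMIP004, 15.26 and 15.36 with BTZ, 13.66 and 13.63 with CPT and 14.34 and 13.96 with RVT. The BTZ samples lay highest and the SMIP004 samples lowest, with no overlap between these groups and DMSO. HSPA8 had a log2 change of -1.47 ± 0.14 with SMIP004 (adjusted p = 9.38e-05), of 0.91 ± 0.14 with BTZ (adjusted p = 8.36e-04) and of -0.75 ± 0.14 with CPT (adjusted p = 0.00265). A further HSPA8 probe, annotated to another transcript, moved the same way, by -0.91 with SMIP004, 1.18 with BTZ and -0.62 with CPT. HSPA1B, the stress-inducible HSP70, read 12.93 and 13.03 in DMSO, 11.88 and 11.97 with SMIP004, 15.54 and 15.13 with BTZ, 14.12 and 14.02 with CPT and 13.36 and 14.09 with RVT. Its BTZ, CPT and RVT samples were all above DMSO and its SMIP004 samples below. HSPA1B had a log2 change of -1.06 ± 0.24 with SMIP004 (adjusted p = 0.00570), of 2.36 ± 0.24 with BTZ (adjusted p = 8.60e-05) and of 1.09 ± 0.24 with CPT (adjusted p = 0.00474). HSPA1A and HSPA1B encode nearly the same protein and transcript, and how far their signals are separate is uncertain: the probe assigned to HSPA1A gave intensities of 54.8 to 123.1 and was detected on no array. HSPA1L, the testis-enriched relative beside them in the genome, was called against DMSO with CPT (1.41 ± 0.27, adjusted p = 0.00268), and, with RVT left out of the model, also as higher with SMIP004 (adjusted p = 0.00424, limma). HSPA14, a ribosome-associated HSP70, was called in BTZ against CPT and against RVT, and without RVT in the model also as higher with BTZ than in DMSO (adjusted p = 7.09e-04, limma) and lower with SMIP004 than with BTZ (7.19e-04). On the BTZ arrays the brightest HSPA1B signal reached 94.7% of the highest probe of its array, and that of HSPA8 87.7%, which leaves little room for a higher value with BTZ.

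All 3 HSP110 proteins, the exchange factors and holdases related to HSP70, rose with BTZ. HSPH1, known as HSP105, read 11.67 and 11.64 in DMSO, 9.98 and 10.01 with SMIP004, 14.11 and 14.06 with BTZ, 10.95 and 10.84 with CPT and 11.68 and 11.78 with RVT. Samples of DMSO and RVT lay together, BTZ well above them and CPT and SMIP004 below. HSPH1 had a log2 change of -1.66 ± 0.11 with SMIP004 (adjusted p = 1.67e-05), of 2.43 ± 0.11 with BTZ (adjusted p = 4.13e-06) and of -0.76 ± 0.11 with CPT (adjusted p = 6.72e-04), and SMIP004 was lower than BTZ by 17.0-fold (adjusted p = 1.15e-06, limma). HSPA4L, a stress-induced relative, read 8.61 and 8.55 in DMSO, 8.61 and 8.52 with SMIP004, 11.44 and 11.46 with BTZ, 10.28 and 10.46 with CPT and 8.37 and 9.69 with RVT. Here SMIP004 and DMSO overlapped, and BTZ and CPT were both above every other sample. HSPA4L had a log2 change of -0.02 ± 0.35 with SMIP004 (adjusted p = 0.974), of 2.87 ± 0.35 with BTZ (adjusted p = 2.21e-04) and of 1.79 ± 0.35 with CPT (adjusted p = 0.00285). HSPA4, the general HSP110 of the cytosol, rose with BTZ (1.25 ± 0.12, adjusted p = 8.12e-05), and fell with CPT (-0.92 ± 0.12, adjusted p = 4.69e-04) and RVT (-1.07 ± 0.12, adjusted p = 0.00976), while with SMIP004 its change was -0.20 ± 0.12, adjusted p = 0.193.

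Both HSP90 genes fell with SMIP004 and rose with BTZ, and neither was called with CPT or RVT in the model of all samples. With RVT left out, HSP90AB1 was called lower with CPT (-0.25 ± 0.10, adjusted p = 0.0392, limma). HSP90AA1, the inducible isoform HSP90α, read 14.59 and 14.47 in DMSO, 13.29 and 13.39 with SMIP004, 15.11 and 15.05 with BTZ, 14.38 and 14.25 with CPT and 14.61 and 14.14 with RVT. BTZ lay above and SMIP004 below every other sample. HSP90AA1 had a log2 change of -1.19 ± 0.16 with SMIP004 (adjusted p = 4.97e-04) and of 0.55 ± 0.16 with BTZ (adjusted p = 0.0184). The BTZ call on HSP90AA1 was lost when either DMSO or either BTZ sample was left out (adjusted p of 0.0516, 0.0952, 0.0829 and 0.0606 by limma), and its signal with BTZ reached 82.9% of the brightest probe. HSP90AB1, the constitutive isoform HSP90β, read 13.54 and 13.44 in DMSO, 12.42 and 12.32 with SMIP004, 15.32 and 15.32 with BTZ, 13.19 and 13.28 with CPT and 13.53 and 13.25 with RVT. Its BTZ samples lay above every other sample, and its signal with BTZ reached 89.2% of the brightest probe, which likewise leaves little room for a higher value. Quantile normalization gives probes of equal rank the same level, so that its equal BTZ values are no measure of their spread. HSP90AB1 had a log2 change of -1.12 ± 0.13 with SMIP004 (adjusted p = 2.26e-04) and of 1.83 ± 0.13 with BTZ (adjusted p = 1.99e-05).

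**Figure D3:**
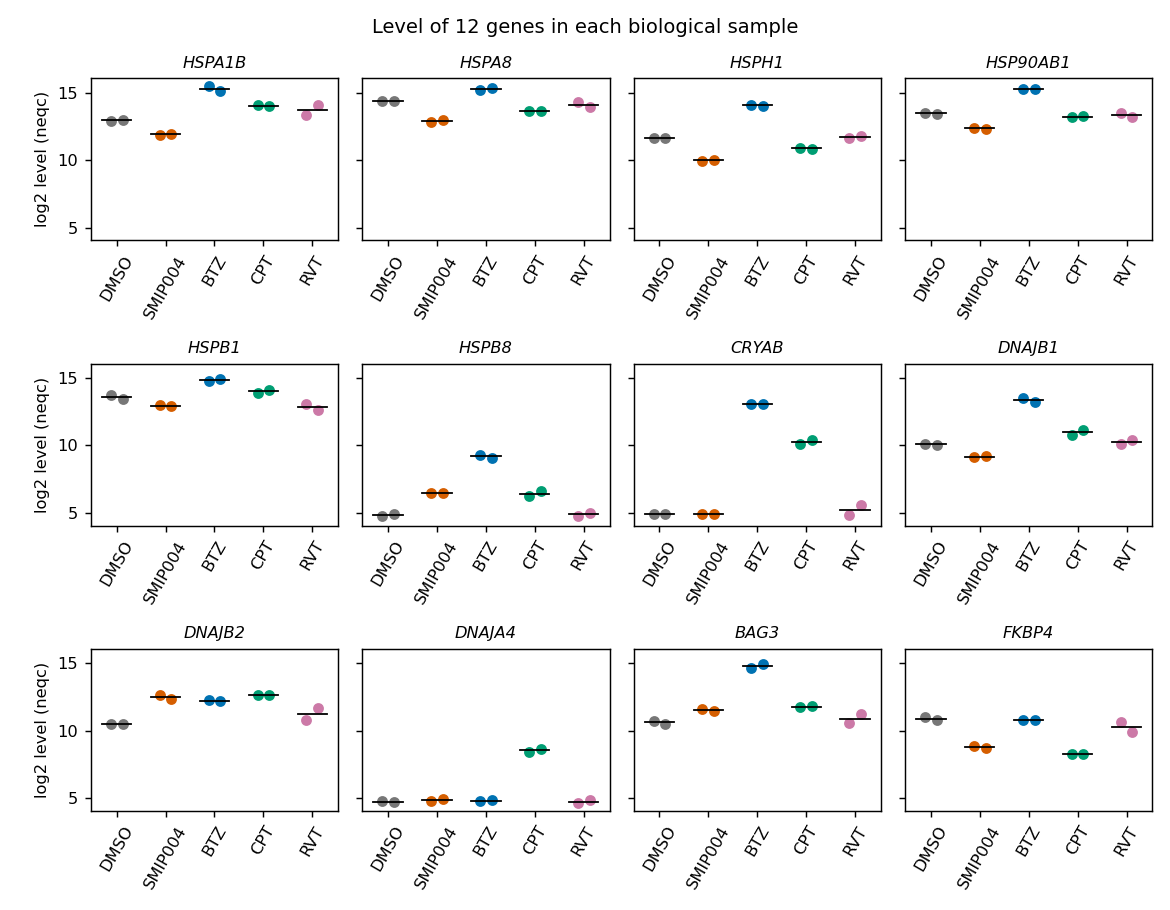
Log2 level (vertical axis, one scale for all panels) of 12 genes in the 2 samples of each group (points), with the group mean (line). HSPA8, HSPH1 and HSP90AB1 are lowest or near lowest with SMIP004 and highest with BTZ, DNAJB2 is high with SMIP004, BTZ and CPT, CRYAB rises with BTZ and CPT, and DNAJA4 rises with CPT.

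The 3 small heat shock proteins rose with BTZ, but with SMIP004 HSPB1 was lower, HSPB8 was higher and CRYAB was not detected. HSPB1, the abundant HSP27, read 13.76 and 13.42 in DMSO, 12.98 and 12.94 with SMIP004, 14.76 and 14.95 with BTZ, 13.94 and 14.14 with CPT and 13.05 and 12.67 with RVT. BTZ was above and SMIP004 below both DMSO samples, with RVT also below DMSO. HSPB1 had a log2 change of -0.63 ± 0.18 with SMIP004 (adjusted p = 0.0166) and of 1.26 ± 0.18 with BTZ (adjusted p = 4.83e-04). The SMIP004 call on HSPB1 was lost without DMSO 1, SMIP004 1 or SMIP004 2 (adjusted p of 0.117, 0.0664 and 0.0816 by limma). HSPB8, which works with BAG3 in chaperone-assisted autophagy, read 4.79 and 4.88 in DMSO, 6.44 and 6.44 with SMIP004, 9.32 and 9.09 with BTZ, 6.23 and 6.59 with CPT and 4.77 and 4.98 with RVT. It was detected on no DMSO or RVT array, on 3 of 4 SMIP004 arrays, on both BTZ arrays and on 1 of 2 CPT arrays. HSPB8 was at least 6.69-fold higher with BTZ than in DMSO (adjusted p = 1.96e-06, limma) and was called higher with SMIP004 (adjusted p = 9.33e-05) and CPT (adjusted p = 1.13e-04) with no fold to be given, and BTZ exceeded SMIP004 by 6.81-fold. CRYAB, αB-crystallin, a chaperone of muscle and lens, read 4.87 and 4.91 in DMSO, 4.90 and 4.93 with SMIP004, 13.12 and 13.10 with BTZ, 10.14 and 10.38 with CPT and 4.83 and 5.59 with RVT. Only the BTZ and CPT arrays detected it. CRYAB was at least 100.1-fold higher with BTZ than in DMSO (adjusted p = 1.04e-06, limma), at least 13.8-fold higher with CPT (adjusted p = 2.32e-06), and BTZ exceeded CPT by 7.23-fold within slide 2 (adjusted p = 1.68e-05).

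Of 7 J-domain proteins tested, SMIP004 raised 2 and lowered 3 (28.7% and 29.9% over all genes). BTZ raised 5 and CPT raised 6 (31.7% higher over all genes with each), and without RVT in the model SMIP004 lowered 4 and CPT raised 7 (38.7% and 38.2%). DNAJB1, HSP40, the main stress-induced partner of HSP70, read 10.13 and 10.05 in DMSO, 9.12 and 9.21 with SMIP004, 13.51 and 13.25 with BTZ, 10.80 and 11.14 with CPT and 10.15 and 10.44 with RVT. SMIP004 was below and BTZ above every other sample. DNAJB1 had a log2 change of -0.92 ± 0.17 with SMIP004 (adjusted p = 0.00214), of 3.29 ± 0.17 with BTZ (adjusted p = 5.68e-06) and of 0.88 ± 0.17 with CPT (adjusted p = 0.00257). DNAJA1, a farnesylated cytosolic J-domain protein, read 12.66 and 12.61 in DMSO, 12.05 and 12.16 with SMIP004, 14.35 and 14.54 with BTZ, 13.71 and 13.51 with CPT and 12.86 and 12.86 with RVT. The RVT samples lay just above DMSO, and CPT and BTZ above those. DNAJA1 had a log2 change of -0.53 ± 0.13 with SMIP004 (adjusted p = 0.00798), of 1.82 ± 0.13 with BTZ (adjusted p = 1.90e-05) and of 0.98 ± 0.13 with CPT (adjusted p = 3.97e-04), the first of these lost without SMIP004 1 (adjusted p = 0.0670, limma). DNAJB2, which carries ubiquitin-binding motifs and directs clients to the proteasome, read 10.46 and 10.46 in DMSO, 12.65 and 12.37 with SMIP004, 12.28 and 12.18 with BTZ, 12.64 and 12.68 with CPT and 10.78 and 11.66 with RVT. The SMIP004, BTZ and CPT samples lay together, above both RVT and both DMSO samples. DNAJB2 had a log2 change of 2.05 ± 0.25 with SMIP004 (adjusted p = 2.92e-04), of 1.77 ± 0.25 with BTZ (adjusted p = 5.17e-04) and of 2.20 ± 0.25 with CPT (adjusted p = 2.29e-04), and the direct SMIP004 minus BTZ difference was 0.28 ± 0.25, adjusted p = 0.387 (adjusted p = 0.0429 without RVT in the model).

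DNAJB4, a relative of DNAJB1, read 5.67 and 5.83 in DMSO, 7.47 and 7.57 with SMIP004, 10.36 and 9.96 with BTZ, 8.36 and 8.40 with CPT and 5.21 and 7.48 with RVT. It was detected on no DMSO array, on 1 of 2 RVT arrays and on all SMIP004, BTZ and CPT arrays. The RVT samples were 2.26 apart, and the SE of DNAJB4 was 0.59 with RVT in the model and 0.13 without. DNAJB4 was at least 2.08-fold higher with SMIP004 (adjusted p = 0.0313, limma), at least 12.9-fold higher with BTZ (adjusted p = 3.47e-04) and at least 3.78-fold higher with CPT (adjusted p = 0.00530). Without RVT in the model the SMIP004 p was 2.11e-07, but the call was lost without either sample of DMSO, SMIP004, CPT or BTZ (adjusted p of 0.0508 to 0.121) and without a filter on dim probes (0.0604). DNAJA4, which is close to DNAJA1, was detected with CPT alone, at 8.41 and 8.65 against 4.59 to 4.89 in the other 8 samples. It was at least 4.18-fold higher with CPT than in DMSO (adjusted p = 1.63e-06, limma) and at least 3.25-fold higher than with BTZ (adjusted p = 1.14e-06). As DNAJA4 entered the test only through the CPT arrays, these p-values are no separate support. DNAJA2, another cytosolic type of the same class, fell with SMIP004 (-0.45 ± 0.13, adjusted p = 0.0159).

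DNAJB6, a suppressor of protein aggregation made in a long nuclear and a short form, gave different answers by probe. The probe annotated to the short-form transcript, which represents the gene in the counts, rose with BTZ (1.86 ± 0.24, adjusted p = 2.64e-04) and CPT (1.01 ± 0.24, adjusted p = 0.00643), and its SMIP004 change was -0.43 ± 0.24, adjusted p = 0.152. With RVT left out of the model its fall with SMIP004 was called (adjusted p = 0.00682, limma). The long-form probe read 9.29 and 9.42 in DMSO and 10.79, 10.91, 10.74 and 10.75 on the 4 SMIP004 arrays, with no overlap. It rose by 1.44 ± 0.29 with SMIP004 (adjusted p = 0.00356, limma over 10149 probes), by 2.23 ± 0.29 with BTZ and by 0.93 ± 0.29 with CPT. The 2 probes' changes with SMIP004 differed by 1.87. An exact two-sided permutation test gave p = 0.333. That is the smallest that 2 samples against 2 can give, so the test cannot decide whether the probes differ.

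**Figure D4:**
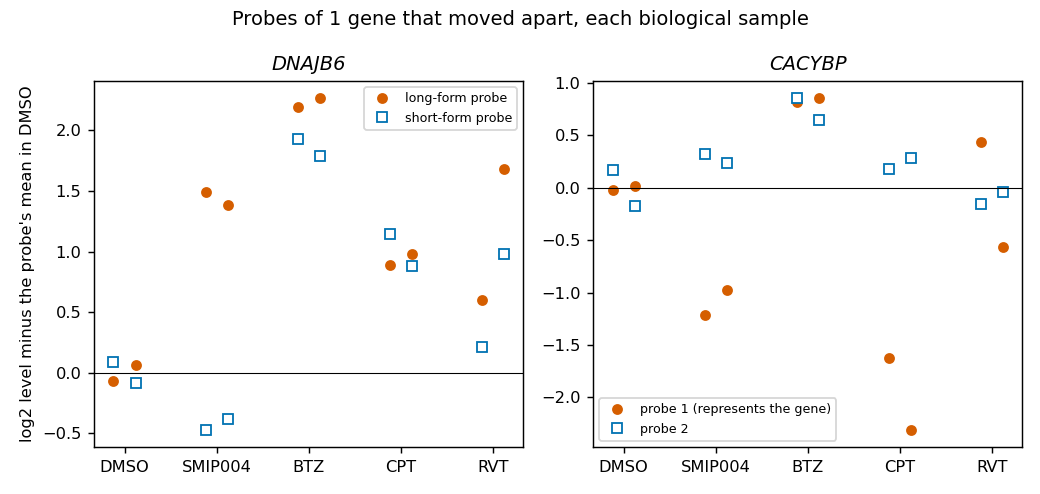
Log2 level of each probe minus its own DMSO mean (vertical axis) in the 2 samples of each group, for DNAJB6 (left) and CACYBP (right), with filled circles and open squares for the 2 probes of a gene. With SMIP004 the DNAJB6 probes lie on opposite sides of 0, and with SMIP004 and CPT only the CACYBP probe that represents the gene lies below 0.

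Among exchange factors, BAG3, the BAG protein that links HSP70 to selective autophagy, read 10.75 and 10.52 in DMSO, 11.61 and 11.47 with SMIP004, 14.63 and 14.94 with BTZ, 11.76 and 11.80 with CPT and 10.57 and 11.22 with RVT. BTZ was above every other sample, and SMIP004 was above DMSO. BAG3 had a log2 change of 0.91 ± 0.22 with SMIP004 (adjusted p = 0.00763), of 4.15 ± 0.22 with BTZ (adjusted p = 6.00e-06) and of 1.15 ± 0.22 with CPT (adjusted p = 0.00245), the first of these lost without DMSO 2 or SMIP004 1 (adjusted p of 0.0554 and 0.0522, limma). The direct SMIP004 minus BTZ difference was -3.24 ± 0.22, adjusted p = 2.77e-05. HSPB8, BAG3, DNAJB2 and DNAJB4 were the 4 genes called higher with both compounds. BAG1 was detected on 1 array of 12 and no probe was assigned to BAG2.

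HSF1, or heat shock factor 1, was not detected by its probe on any of 12 arrays (intensities of 75 to 96.3), and no probe was assigned to HSF2. An undetected probe does not show that the transcript is absent. Likewise HSPA2, DNAJB5 and CHORDC1 were detected on no array, and HSPA6 and AHSA1 had no probe assigned.

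Of 6 HSP90 cochaperones and adaptors tested, 5 fell with SMIP004 and 4 with CPT (29.9% and 31.7% lower over all genes), and BTZ raised 3 and lowered 1 (31.7% and 32.8%). Without RVT in the model 5 fell with CPT, where STIP1 was added (adjusted p = 0.0252, limma), against 38.4% of all genes, and BTZ raised 4, CACYBP being added (adjusted p = 0.00107), against 38.5%. FKBP4, or FKBP52, an immunophilin that promotes androgen receptor signaling through HSP90, read 11.02 and 10.76 in DMSO, 8.82 and 8.71 with SMIP004, 10.75 and 10.82 with BTZ, 8.30 and 8.24 with CPT and 10.61 and 9.89 with RVT. SMIP004 and CPT were far below all other samples, while BTZ and DMSO overlapped. FKBP4 had a log2 change of -2.13 ± 0.22 with SMIP004 (adjusted p = 1.22e-04), of -0.10 ± 0.22 with BTZ (adjusted p = 0.704) and of -2.62 ± 0.22 with CPT (adjusted p = 4.91e-05). STIP1, or HOP, which joins HSP70 to HSP90, read 11.98 and 12.16 in DMSO, 11.43 and 11.34 with SMIP004, 13.74 and 13.77 with BTZ, 11.50 and 11.91 with CPT and 12.51 and 12.55 with RVT. SMIP004 lay below and BTZ above DMSO and RVT. STIP1 had a log2 change of -0.69 ± 0.15 with SMIP004 (adjusted p = 0.00551) and of 1.69 ± 0.15 with BTZ (adjusted p = 5.24e-05). ST13, or HIP, which stabilizes the ADP state of HSP70, read 10.64 and 10.62 in DMSO, 9.70 and 9.77 with SMIP004, 11.64 and 11.82 with BTZ, 10.35 and 10.25 with CPT and 10.61 and 10.59 with RVT. Here the DMSO and RVT samples lay close together. ST13 had a log2 change of -0.89 ± 0.12 with SMIP004 (adjusted p = 3.84e-04), of 1.10 ± 0.12 with BTZ (adjusted p = 1.10e-04) and of -0.33 ± 0.12 with CPT (adjusted p = 0.0359). The CPT call was lost with a replicate block (adjusted p = 0.0545, limma) and on the first technical arrays only (0.0558). It was also lost without either sample of DMSO, SMIP004 or CPT.

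PTGES3, the HSP90 cochaperone p23, was called lower with all 4 compounds in the model of all samples. By limma the changes were -1.03 ± 0.12 with SMIP004 (adjusted p = 2.05e-04), -0.38 ± 0.12 with BTZ (adjusted p = 0.0211), -1.42 ± 0.12 with CPT (adjusted p = 4.69e-05) and -0.81 ± 0.12 with RVT (adjusted p = 0.0165). With the second technical arrays only, 1 listed gene was called lower with BTZ, in place of 2 (PTGES3 and STUB1). A limma model of only DMSO and RVT called 0 of the listed genes. CACYBP, an adaptor of the SIAH1 ubiquitin ligase, fell with SMIP004 (-1.09 ± 0.33, adjusted p = 0.0208) and CPT (-1.97 ± 0.33, adjusted p = 0.00128) by the probe that represents it, but a further probe changed by 0.28 and 0.23, neither called. CDC37, which recruits kinases to HSP90, was slightly higher with BTZ (0.34 ± 0.12, adjusted p = 0.0409, limma), also against CPT. The change from DMSO crosses slides and is close to the threshold. Scaling the arrays to 1 median shifted the median of all genes by -0.22 for BTZ against DMSO. It left 19 listed genes called higher with BTZ in place of 20. With SMIP004 the change of CDC37 was 0.08 ± 0.12 (adjusted p = 0.585, limma).

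Of the ubiquitin genes, STUB1, the ligase CHIP that marks clients of HSP70 and HSP90, was lower with BTZ (-1.64 ± 0.16, adjusted p = 7.44e-05), SMIP004 (-0.67 ± 0.16, adjusted p = 0.00792) and CPT (-0.58 ± 0.16, adjusted p = 0.0137). It was higher with SMIP004 than with BTZ (0.97 ± 0.16, adjusted p = 0.00168). UBB, a polyubiquitin gene, was higher with BTZ (1.33 ± 0.13, adjusted p = 8.20e-05) and CPT (0.44 ± 0.13, adjusted p = 0.0207) and was the brightest probe of its BTZ array, and its SMIP004 change was -0.19 ± 0.13, adjusted p = 0.261.

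**Figure D5:**
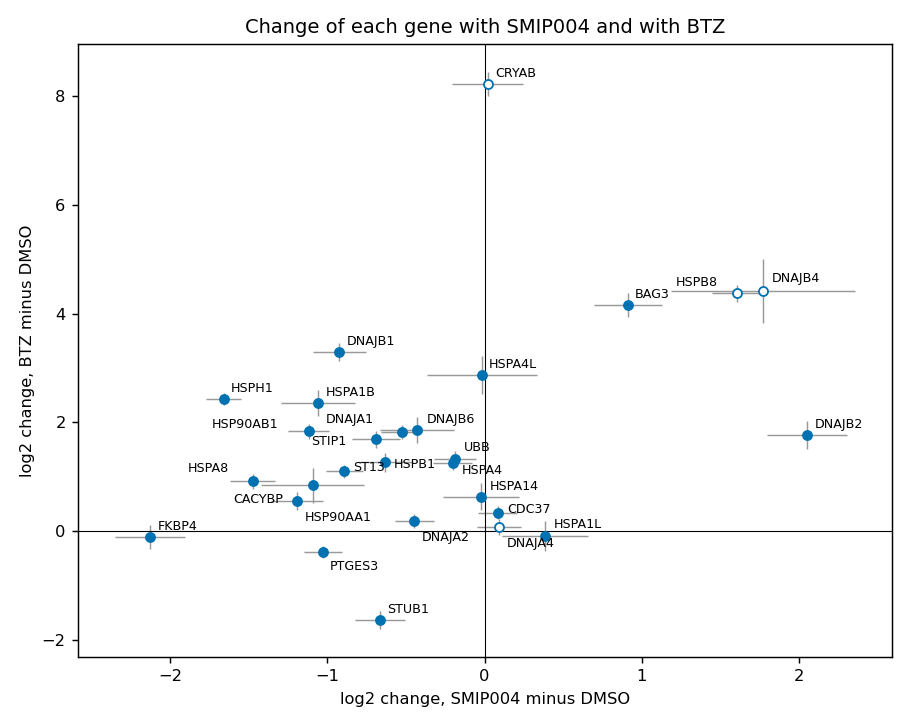
Log2 change from DMSO with SMIP004 (horizontal axis) and with BTZ (vertical axis) of the 28 genes, with SE bars, open circles standing for genes detected on no DMSO array, whose fitted change is no bound. Both axes use the same 2 DMSO samples. The 10 genes called in opposite directions lie at the upper left, and DNAJB2, DNAJB4, HSPB8 and BAG3 at the upper right.

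With RVT the samples differed within the group by up to 2.26, for DNAJB4, which was 0.54 below the DMSO mean in RVT 1 and 1.72 above it in RVT 2. DNAJB4 was detected on no DMSO array and on 1 of 2 RVT arrays, so that part of this spread lies among undetected signals. HSPA4L was at 8.37 and 9.69, and DNAJB2 at 10.78 and 11.66. The 3 genes called lower were HSPA4 (-1.04 and -1.10 from the DMSO mean in RVT 1 and RVT 2), PTGES3 (-0.78 and -0.84) and HSPB1 (-0.54 and -0.93). HSPB1 lost its call in most of the alternatives. Leaving out RVT 1 raised the number of listed genes called from 3 to 17, when 56.8% of all genes were called, and leaving out RVT 2 raised it to 6, when 18.4% were (7.67% with all samples). Leaving out either DMSO sample gave 0, as over all genes, and leaving out either SMIP004 sample gave 1, when 0.672% of all genes were called.

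Further chaperone genes were counted by list. Of the DNAJC genes, more distant J-domain proteins, 19 of 24 were tested: SMIP004 raised 6 and lowered 4 and CPT raised 6 and lowered 5, shares near or below those over all genes (28.7% and 29.9%, and 31.7% each way), and BTZ raised 12 and lowered 3 (31.7% and 32.8%). Without RVT in the model the counts were 10 and 6, 9 and 7, and 13 and 3 in the same order, against 36.7% and 38.7%, 38.2% and 38.4%, and 38.5% and 39.3%. DNAJC12, a cochaperone of aromatic amino acid hydroxylases, rose with SMIP004 (2.74 ± 0.12, adjusted p = 2.56e-06), and DNAJC1, a J-domain protein of the endoplasmic reticulum, was at least 4.01-fold lower with CPT (adjusted p = 2.64e-06, limma). Of further cochaperones, 13 of 19 were tested: SMIP004 raised 3 and lowered 2 and CPT raised 4 and lowered 3, near or below the shares over all genes, and BTZ raised 9 and lowered 1 (31.7% and 32.8%). Without RVT in the model these were 7 and 4, 8 and 3, and 9 and 1, against 36.7% and 38.7%, 38.2% and 38.4%, and 38.5% and 39.3%. The counts raised with SMIP004 and CPT were then above the shares over all genes. FKBP5, or FKBP51, an androgen-induced relative of FKBP4, was lower with SMIP004 (-3.25 ± 0.63, adjusted p = 0.00288) and with CPT (-3.60 ± 0.63, adjusted p = 0.00169). With BTZ it read 8.14 and 8.24, also below the 9.79 and 10.08 in DMSO. TTC1, which binds HSP70, was higher with BTZ (2.07 ± 0.17, adjusted p = 3.31e-05). With SMIP004 it read 10.70 and 10.55, also above the 9.36 and 9.25 in DMSO.

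Of 9 listed chaperones of other compartments, 8 were tested: SMIP004 raised 4 and lowered 2 (28.7% and 29.9% over all genes), BTZ raised 6 and lowered 2 (31.7% and 32.8%), and CPT raised none and lowered 6 (31.7% each way). Without RVT in the model the 1 count that differed was 5 raised by SMIP004 (36.7%). HSPA5, or BiP, the HSP70 of the endoplasmic reticulum, rose with SMIP004 (2.86 ± 0.18, adjusted p = 1.36e-05) and with BTZ (2.92 ± 0.18, adjusted p = 1.15e-05). HYOU1, its exchange factor, rose with SMIP004 (2.57 ± 0.13, adjusted p = 5.71e-06), as did HSPA13, a microsomal HSP70 (2.45 ± 0.22, adjusted p = 6.58e-05), whereas HSPE1, the mitochondrial HSP10, fell (-2.10 ± 0.15, adjusted p = 2.22e-05). Mean levels with BTZ were also above DMSO for HYOU1 (11.38 against 9.47) and HSPA13 (9.10 against 8.40). For HSPE1 the BTZ mean was below DMSO (11.91 against 12.32). Of the list of heat shock factor regulators and ubiquitin genes, 1 of 5 was tested, HSBP1, a binder of HSF1, which was lower with SMIP004 (-0.94), was higher with CPT (0.71) and RVT (0.57), and was -0.21 with BTZ, where it was not called.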

How the data were processed

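Total RNA from 10 samples of 5 groups was measured on 12 Illumina HumanRef-8 arrays of 24526 probes. The authors scanned and summarized the arrays with the BeadStation software and deposited 1 intensity per probe and array, not normalized, each beside a detection p-value against negative controls. A table of log2 values after quantile normalization, also deposited by the authors, served as an alternative. Intensities were corrected and normalized with neqc (offset 16) of limma 3.58.1 in R 4.3.3. A probe was kept where, in 1 group or more, all arrays gave it a detection p below 0.01 (11111 probes), and a gene was represented by its brightest probe (highest mean level). Arrays had mean intensities of 473 to 802 and 8737 to 9909 detected probes, and their number limits the precision. Technical arrays were averaged, and 1 model was fitted with lmFit and eBayes (5 residual and 2.95 prior degrees of freedom). Of all probes, 21834 had 1 gene by the platform annotation and 2692 were not named here, and 99.9% of the gene identifiers matched the RefSeq table of GRCh38.p14, which also gave the promoter windows.

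The members, lists, tests and naming rule were chosen with earlier results of these data known. Every sample is shown for the 6 genes with the largest changes with BTZ and the 6 with SMIP004, and for genes called in opposite directions. HSF1 and HSF2 are always accounted for. Of other lists, called genes with a log2 change of 2 or more against DMSO are named, at most 4 a list. The replicate numbers do not pair the samples. Simulated data with known changes served to test the model. Their spread was taken from the groups other than RVT, so that the wide spread of the RVT samples was not part of that test. Alternatives changed the normalization, filter, probe rule, technical arrays, samples in the model, variance moderation and threshold. Figures were drawn with matplotlib 3.10.9.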

Additional observations from a re-analysis of the deposited data

How the results depend on the processing

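Under the 2-fold threshold with an unadjusted p of 0.05 or less, the listed genes called numbered 11 with SMIP004 (3 higher, 8 lower), 13 with CPT and 1 with RVT, against 19, 21 and 3. Over all 8783 genes the counts were 2736, 3000 and 516, against 5144, 5569 and 674. A limma model of only DMSO and RVT called 0 of the listed genes, and 0 genes in all, at an adjusted p under 0.05. Leaving out 1 sample at a time gave 13 to 21 calls with SMIP004, 19 to 24 with BTZ, 18 to 25 with CPT, 0 to 17 with RVT, 23 to 26 for SMIP004 against BTZ, 21 to 27 for BTZ against CPT and 19 to 24 for BTZ against RVT. The share of all genes called also moved with the sample left out, so these ranges are no trait of the listed genes alone. Where a group was left with 1 sample, that sample was assumed to vary like the other groups. DNAJB4 with RVT against DMSO ran from -0.54 without RVT 2, a reversal, to 1.72 without RVT 1. It was detected on no DMSO array and on 1 of 2 RVT arrays, so that these values give no fold. No other called value of the 17 named genes changed sign in any of the settings tried. Scaling the arrays to 1 median shifted the median of all genes by -0.22 for BTZ and -0.30 for CPT against DMSO, 0.19 for SMIP004 against BTZ and -0.16 for BTZ against RVT. No call on the listed genes changed sign with it.

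With the replicate block the counts were 19 for SMIP004, 22 for BTZ, 20 for CPT and 2 for RVT against DMSO, 23 for SMIP004 against BTZ, 26 for BTZ against CPT and 23 for BTZ against RVT. Over all 8783 genes they were 5043, 5573, 5445, 332, 4155, 5665 and 5166 in the same order. Deviations of same-numbered samples correlated between -0.19 and 0.09, so the samples share only a number. Signals just above background bound the folds of CRYAB, DNAJA4, DNAJB4 and HSPB8.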

Other observations

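Technical arrays of the same SMIP004 sample differed by a median of 0.083 and 0.106 on the log2 scale over the listed genes. The 2 SMIP004 samples, each a mean of 2 arrays, differed by 0.093. Averaging lowers the technical part of that value, so it cannot be set directly against the values for single arrays. The largest difference between technical arrays was 0.52, for ST13.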
